A study of Mus musculus with 10 samples.

Results

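Siglech, Bst2, Pacsin1, Ccr9 and Tcf4 are genes by which plasmacytoid dendritic cells are known, and their RNA was measured here in colonies of B cell precursors that carried 1 or both alleles of Hspa9. Hspa9 encodes mortalin, a chaperone of the mitochondrial matrix. The members were taken by name: a probe set counted where the platform annotation gives it that single gene symbol, and each of the 5 members has 1 such probe set, out of 19938 symbols in all. All 5 lay above the filter on dim probe sets, a mean of 4.52 on the log2 scale over the 10 arrays, which left 14953 genes for testing.

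The heterozygous group is 5 Hspa9+/- mice and the wild type group is 5 Hspa9+/+ littermates, 1 array per mouse. Bone marrow cells of each mouse were cultured separately, the pre-B colonies (CFU-PreB, grown in M3630 methylcellulose medium) were collected on day 7, and B220+ cells were sorted from them. No agent was added beyond the culture medium. The labels used here give neither the age nor the sex of the mice, nor the construction of the Hspa9 allele. B220, the form of CD45 on B lineage cells, is carried by plasmacytoid dendritic cells as well, so the sort could take them. Values are in log2 units of RMA, the array summary the submitters used; differences are heterozygous minus wild type, ± gives the SD, and n = 5 per genotype.

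The arrays carried the label's cell type: the B cell receptor chain genes Cd79a and Cd79b averaged 11.68 and 12.22 in heterozygous arrays, against 11.82 and 12.33 in wild type arrays. The mean of 11 B lineage genes, these among them, was lower in heterozygous arrays, at 10.74 against 10.98. Its difference was -0.24 (exact two-sided permutation p = 0.0397, unadjusted). Hspa9 was 9.52, 8.92, 9.30, 9.21 and 8.97 in heterozygous arrays 1 to 5, against 9.49, 9.57, 10.36, 10.17 and 9.99 in wild type arrays 1 to 5. The Hspa9 difference was -0.73 (exact two-sided permutation p = 0.0159, limma adjusted p = 0.345), with heterozygous 1 above wild type 1 and the other heterozygous arrays below all wild type arrays. The sources do not say if the Hspa9 probe set covers the altered sequence of the allele. The mean of 12 monocyte and macrophage markers was 7.35, 9.70, 7.25, 7.05 and 7.21 in heterozygous 1 to 5, against 9.18, 7.66, 5.87, 5.61 and 5.79 in wild type 1 to 5. Heterozygous 2, at 9.70, thus stood apart from the other heterozygous arrays, the next of which was at 7.35. Wild type 1 was the highest of its genotype but did not stand apart alone, since wild type 2, at 7.66, also lay above the remaining wild type arrays. The members and the counts of gene lists that changed are given with and without heterozygous 2 and wild type 1, the highest array of each genotype.

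Plasmacytoid dendritic cells are immune cells of bone marrow, blood and lymphoid tissue that sense nucleic acids of viruses with endosomal Toll-like receptors and answer with large amounts of type I interferon. They arise from progenitors that can also give rise to lymphoid or other dendritic cells, and they share several genes with B cell precursors. Their identity depends on the basic helix-loop-helix factor encoded by Tcf4 (E2-2), one of the E proteins, which bind the E-box, CANNTG. Siglech, Bst2 and Ccr9 encode surface proteins of these cells, and Pacsin1 a cytoplasmic one.

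The 250 bases before the annotated start of 3 surface protein genes are printed here because they show where the letters of an E-box stand beside the genes whose levels moved together across arrays. Sequences are from RefSeq, build GRCm38.p6, 5′ to 3′ on the gene's own strand, with matches in capitals. They lie at chr7:55767934-55768183 on the + strand for Siglech, chr9:123766961-123767210 on the + strand for Ccr9 and chr8:71537473-71537722 on the - strand for Bst2.
Siglech: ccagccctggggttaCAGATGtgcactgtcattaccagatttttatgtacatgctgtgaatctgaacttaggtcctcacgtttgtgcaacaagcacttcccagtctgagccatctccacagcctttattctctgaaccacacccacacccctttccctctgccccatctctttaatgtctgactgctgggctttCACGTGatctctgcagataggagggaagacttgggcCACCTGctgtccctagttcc
Ccr9: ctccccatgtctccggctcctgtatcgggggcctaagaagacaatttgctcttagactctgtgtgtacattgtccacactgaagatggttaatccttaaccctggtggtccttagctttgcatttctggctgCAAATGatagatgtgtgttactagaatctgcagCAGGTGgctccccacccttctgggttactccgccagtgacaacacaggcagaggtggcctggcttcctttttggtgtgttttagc
Bst2: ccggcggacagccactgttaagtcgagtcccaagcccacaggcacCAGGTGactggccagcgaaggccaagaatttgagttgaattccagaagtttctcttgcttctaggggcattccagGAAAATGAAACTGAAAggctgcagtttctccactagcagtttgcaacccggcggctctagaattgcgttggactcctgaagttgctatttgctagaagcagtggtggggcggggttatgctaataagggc
In the Siglech window CANNTG matched at 235, 56 and 20 bases before the start, in the Ccr9 window at 118 and 85, and in the Bst2 window at 205. Each of these windows holds 1 match to CAGGTG or its reverse complement CACCTG, which is a form of CANNTG. Over 32851 windows of the same length, 66.2% hold CANNTG and 17.2% hold CAGGTG on either strand. The long capital run of the Bst2 window is a pair of overlapping matches to GAAANNGAAA, the core letters of the interferon-stimulated response element, at 130 and 124 bases before the start, a motif held by 2.98% of windows on either strand. The Pacsin1 window, with a GC content of 70.4%, holds no match to any of the 3 motifs. A match describes letters and is not evidence of binding.

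Siglech encodes a surface protein of plasmacytoid dendritic cells from the Siglec family, which is named for lectins that bind sialic acid. It was 7.55, 9.18, 7.996, 6.79 and 6.96 in heterozygous arrays 1 to 5, against 6.51, 7.22, 5.59, 5.34 and 5.65 in wild type arrays 1 to 5. Heterozygous 1, 2 and 3 lay above every wild type array, heterozygous 4 and 5 lay between wild type 1 and wild type 2, and wild type 3, 4 and 5 were the lowest. The genotypes overlapped. The means were 7.69 ± 0.958 in heterozygous and 6.06 ± 0.783 in wild type arrays, a difference of 1.63 (SE 0.477), or 3.10-fold (95% interval 1.50 to 6.43). The exact two-sided permutation test gave p = 0.0238, where the smallest p that 5 against 5 arrays allow is 0.0079. With adjustment over the 14953 genes Siglech had a limma adjusted p = 0.349 and did not pass the threshold of 0.05. In a bulk sample, more cells of a type and more RNA per cell cannot be told apart.

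Ccr9 encodes the receptor for the chemokine Ccl25, which guides plasmacytoid dendritic cells and T cells to gut and thymus. It was 7.01, 8.09, 7.71, 5.99 and 5.82 in heterozygous arrays 1 to 5, against 5.97, 6.85, 4.87, 4.34 and 3.99 in wild type arrays 1 to 5. The arrays fell in much the same order as for Siglech: heterozygous 1, 2 and 3 were above every wild type array, heterozygous 4 lay between wild type 1 and wild type 2, heterozygous 5 just under wild type 1, and wild type 3, 4 and 5 were lowest. The means were 6.93 ± 1.01 in heterozygous and 5.20 ± 1.18 in wild type arrays. The difference was 1.72 (SE 0.598), or 3.30-fold (95% interval 1.33 to 8.21), with an exact permutation p = 0.0397 and a limma adjusted p = 0.373. Only 5 of the 14953 genes had a larger positive difference than Ccr9, and 10 a larger one than Siglech, while neither gene passed the test over all genes.

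Bst2 encodes tetherin, an interferon-inducible surface protein that mouse plasmacytoid dendritic cells carry without stimulation. It was 8.89, 10.16, 9.18, 9.12 and 9.31 in heterozygous arrays 1 to 5, against 8.96, 9.04, 8.33, 8.18 and 8.55 in wild type arrays 1 to 5. Heterozygous 2, 3, 4 and 5 were above all wild type arrays, and heterozygous 1 lay below wild type 1 and 2. The means were 9.33 ± 0.489 in heterozygous and 8.61 ± 0.378 in wild type arrays. The difference was 0.72 (SE 0.246), or 1.65-fold (95% interval 1.13 to 2.40), with an exact permutation p = 0.0238 and a limma adjusted p = 0.364.

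Pacsin1 encodes an adaptor that links dynamin and the actin skeleton in endocytosis, known from neurons and from plasmacytoid dendritic cells. Its values were 5.41, 5.87, 5.91, 5.46 and 5.07 in heterozygous arrays 1 to 5, against 5.02, 5.24, 4.99, 4.97 and 5.19 in wild type arrays 1 to 5. Heterozygous 1 to 4 were above all wild type arrays, and heterozygous 5 lay among them. The means were 5.54 ± 0.352 in heterozygous and 5.08 ± 0.123 in wild type arrays, a difference of 0.46 (SE 0.159), or 1.38-fold (95% interval 1.08 to 1.75). The exact permutation p was 0.0238 and the limma adjusted p = 0.371. This is a dim probe set, since the median gene of the table stands at 5.69.

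Tcf4, the regulator, did not follow the other members. It was 8.49, 8.13, 8.15, 7.41 and 6.76 in heterozygous arrays 1 to 5, against 7.81, 7.37, 8.28, 8.50 and 7.42 in wild type arrays 1 to 5. Heterozygous 5 was the lowest array and wild type 4 the highest, and 0 heterozygous arrays lay above all wild type arrays. The means were 7.79 ± 0.695 in heterozygous and 7.88 ± 0.505 in wild type arrays, a difference of -0.09 (SE 0.335, 95% interval -0.82 to 0.65, limma adjusted p = 0.920). The interval still holds changes of either sign, so equal levels are not shown. The B220 gene Ptprc was lowest in the same 2 heterozygous arrays as Tcf4, at 8.33 in heterozygous 4 and 7.89 in heterozygous 5, against 9.35 to 10.07 in wild type arrays, and its difference was -0.68 (limma adjusted p = 0.490).

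**Figure D1:**
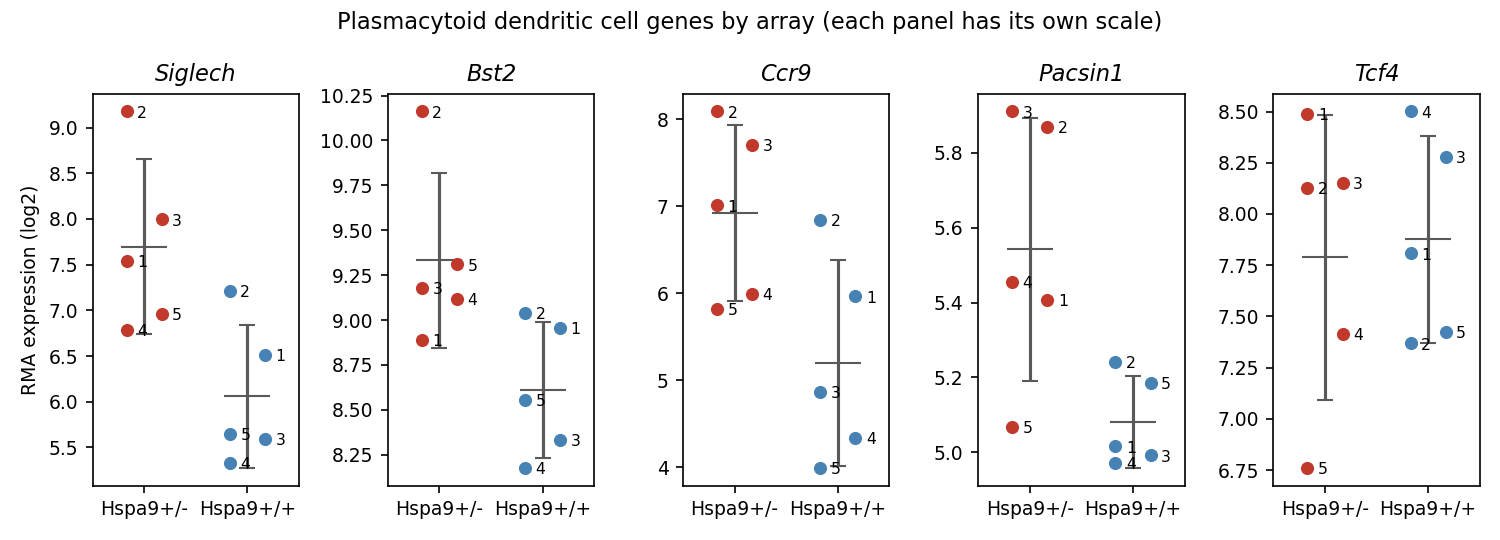
RMA expression (log2, y axis, own scale in each panel) of the 5 members in Hspa9+/- arrays (left of each panel) and Hspa9+/+ arrays (right), with numbered points for single arrays and bars for the mean and SD (n = 5). Siglech and Ccr9 spread over several log2 units with wild type 3, 4 and 5 lowest, while the genotypes of Tcf4 cover much the same range.

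By count, 0 of the 5 members passed the limma adjusted threshold, as did 0 of all 14953 genes (0%). At an unadjusted limma p under 0.05, 4 of the 5 members were higher in heterozygous arrays and 0 were lower, against 1015 higher (6.79%) and 635 lower (4.25%) of all genes. The count of 4 was 3 with quantile normalization and without heterozygous 2 and wild type 1, where Pacsin1 no longer met that p (0.0522 and 0.0581 by limma, unadjusted). The genotypes overlapped in all 5 members, against 220 genes higher without overlap (1.47%) and 121 lower without overlap (0.809%). The median difference of the members was 0.72, and that of all genes 0.06.

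The differences of Siglech, Ccr9, Bst2 and Pacsin1 stayed above 0 with each array left out in turn. They ran from 1.26 to 1.92 for Siglech, from 1.42 to 2.13 for Ccr9, from 0.51 to 0.83 for Bst2 and from 0.37 to 0.58 for Pacsin1. That of Tcf4 ran from -0.26 to 0.17 and so took either sign. With array weights, which give less weight to arrays far from their group, Siglech was at 1.92 (limma adjusted p = 0.0370) and Ccr9 at 2.34 (limma adjusted p = 0.0496), so both passed in that fit, where 137 of all genes passed as well. Without heterozygous 2 and wild type 1, Siglech was at 1.38, Ccr9 at 1.62, Bst2 at 0.60, Pacsin1 at 0.36 and Tcf4 at -0.19.

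**Figure D2:**
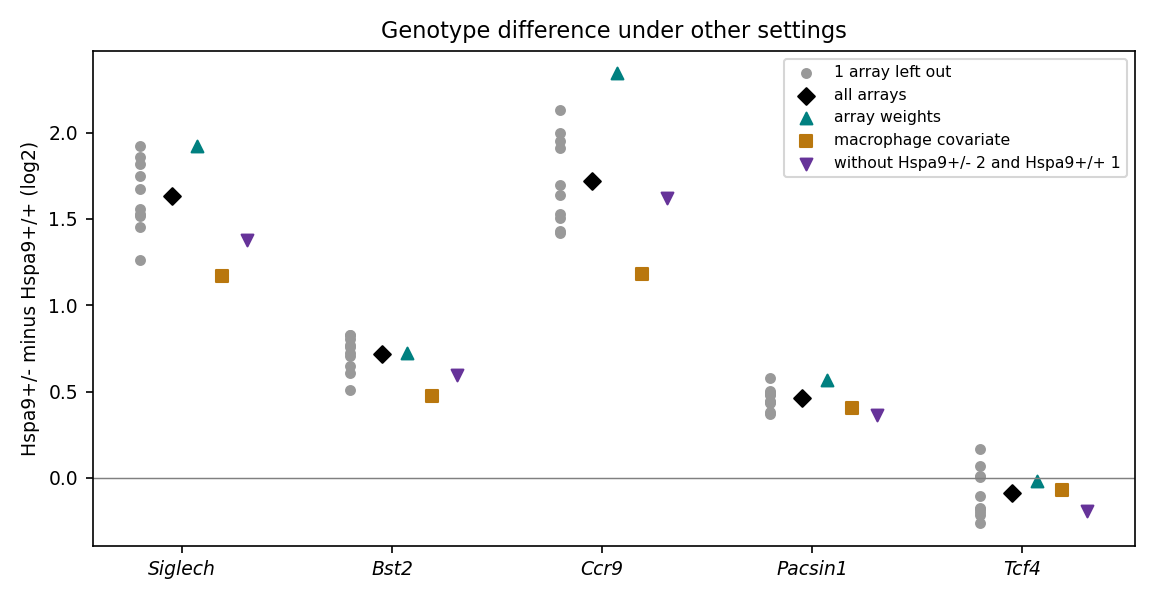
Genotype difference (Hspa9+/- minus Hspa9+/+, log2, y axis) of each member in the fit of all arrays (diamond), with 1 array left out (grey points), with array weights (green), adjusted for the mean of the macrophage markers (orange) and without heterozygous 2 and wild type 1 (purple). The points of 4 members stay above 0, and those of Tcf4 lie on both sides of it.

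The members other than Tcf4 moved together across the 10 arrays. Over their 6 pairs, Pearson's r ran from 0.71 to 0.96 and Spearman's rho from 0.70 to 0.93. The closest pair was Siglech and Ccr9, with r = 0.96 (permutation p = 1e-05, the smallest that 100000 resamples can give, adjusted over 10 pairs 0.0001) and rho = 0.93 (adjusted permutation p = 0.0032). Without heterozygous 2 and wild type 4, the arrays farthest from the median of Siglech, r of this pair was 0.96, and with the genotype means removed it was 0.93. For Bst2 and Pacsin1, the loosest of the 6 pairs, r was 0.71 (adjusted permutation p = 0.0318, 0.0507 by rho), 0.43 without heterozygous 2 and wild type 4 and 0.45 with the genotype means removed, so this relation was weaker both without those arrays and within genotypes. A genotype alone holds 5 arrays, too few for a correlation of its own. In the 4 pairs with Tcf4, r ran from -0.26 to 0.19 and the adjusted permutation p from 0.689 to 0.94.

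**Figure D3:**
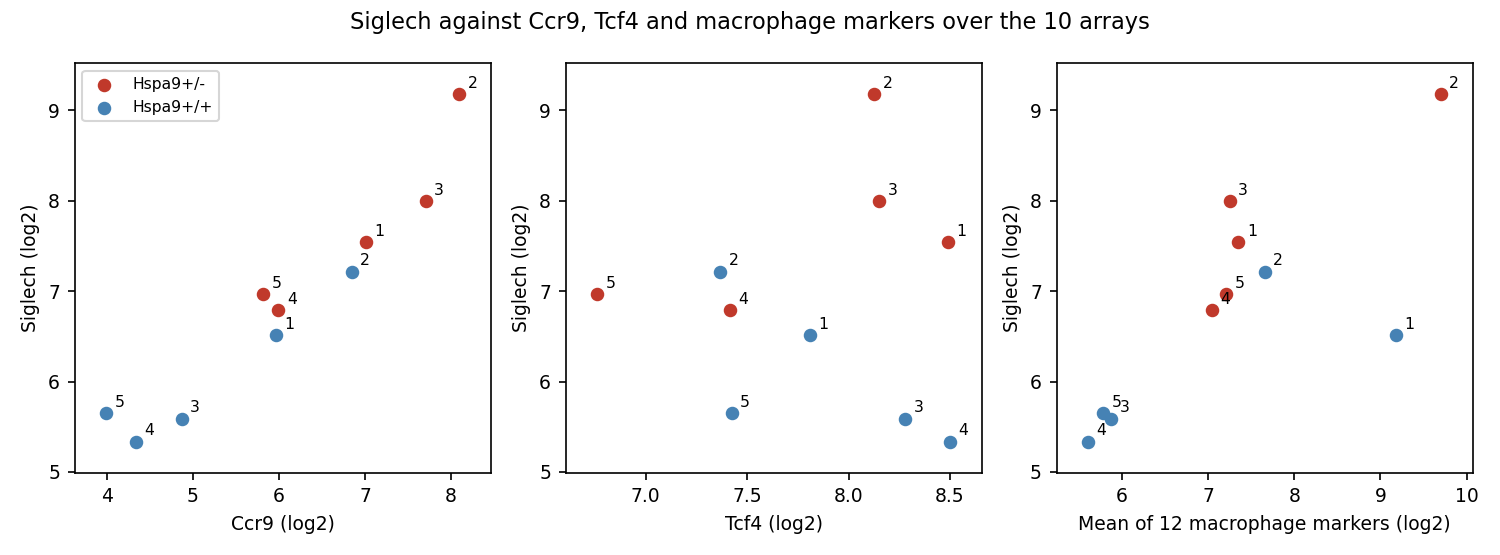
Siglech (log2, y axis) against Ccr9, Tcf4 and the mean of 12 macrophage markers (log2, x axes), with 1 numbered point per array, red for Hspa9+/- and blue for Hspa9+/+. Siglech is higher in arrays where Ccr9 is higher, shows no line with Tcf4, and for the macrophage markers wild type 1 lies off the line of the other arrays.

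Macrophage markers moved with 3 of the members. With the marker mean as x, r was 0.77 for Siglech (adjusted permutation p = 0.0187 over 5 relations), 0.83 for Bst2 (0.0125) and 0.75 for Ccr9 (0.0187). Without heterozygous 2 and wild type 1, r was 0.93 for Siglech, 0.89 for Bst2 and 0.90 for Ccr9. By rho the adjusted permutation p was 0.0365 for Siglech and Ccr9 and 0.0927 for Bst2. For Pacsin1 r was 0.46 (adjusted permutation p = 0.221) and for Tcf4 -0.06 (0.865). With that mean as a covariate in the fit, the difference was 1.17 for Siglech (limma adjusted p = 0.178), 1.18 for Ccr9 (0.253), 0.47 for Bst2 (0.228) and 0.41 for Pacsin1, so the genotype difference of Bst2 was over 1.5 times smaller there. All 12 markers had positive differences, with 0 at an unadjusted p under 0.05 and a median of 0.89. Without heterozygous 2 and wild type 1 that count was 7 higher and 0 lower. It was 7 higher without wild type 1 alone and 0 without heterozygous 2 alone. The 10 neutrophil markers were likewise all above 0, with a median of 0.37. Of these, 0 had an unadjusted p under 0.05 with all arrays and 4, all higher, without both arrays. Both arrays were left out for their high macrophage marker means, so the counts without them are no test of these markers. Over all genes the fit without both arrays had 1497 higher and 911 lower at that p, and the macrophage covariate fit 1381 higher and 869 lower. Wild type 1 had the highest marker mean of its genotype, 9.18, with Siglech at 6.51 and Ccr9 at 5.97. In wild type 2, with a marker mean of 7.66, Siglech was at 7.22 and Ccr9 at 6.85. The part of macrophages in the levels of Siglech and Ccr9 was not tested.

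Of 11 transcription factor genes of plasmacytoid dendritic cells tested besides Tcf4, 3 had a positive difference, against 61.3% of all genes. The median was -0.06. At an unadjusted p under 0.05, 2 were higher and 0 lower, against 6.79% and 4.25% of all genes. Without heterozygous 2 and wild type 1 the count was 3 higher and 1 lower, and with the macrophage covariate 1 higher and 0 lower. The 2 genes were Irf8, an interferon regulatory factor needed for dendritic cell development, at 0.40 (SE 0.175, limma adjusted p = 0.447), and the repressor Etv6 at 0.32 (adjusted p = 0.384). Irf8 was 9.58 to 9.90 in heterozygous arrays, against 8.96 to 9.91 in wild type arrays, where wild type 3, 4 and 5 were again the lowest. Spib, an Ets factor of these cells and of B cells, was at -0.30, Zeb2 at -0.52, Mef2c at -0.44, Irf4 at -0.39 and Ikzf1 at -0.33. The interferon factor Irf7 was at 0.21, and none of these passed. Among the other E proteins and their Id antagonists, Tcf12 (HEB) was at -0.43 (SE 0.160, adjusted p = 0.391), Tcf3 (E2A) at -0.04 and the antagonist Id2 at 0.21, the last of these at -0.35 with the macrophage covariate. Of these 6 genes, 0 were higher and 1, Tcf12, was lower at an unadjusted p under 0.05.

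Of 13 surface protein genes tested, 10 had a positive difference, against 9167 of all 14953 genes. In this list 2 were higher and 0 lower at an unadjusted p under 0.05, against 6.79% and 4.25% of all genes, and the median was 0.41. The count was 4 higher and 1 lower both without heterozygous 2 and wild type 1 and with the macrophage covariate. Lag3, an inhibitory receptor of plasmacytoid dendritic cells and activated T cells, was 5.65, 6.29, 5.72, 5.58 and 5.65 in heterozygous arrays 1 to 5, against 5.18, 5.29, 5.18, 5.15 and 5.24 in wild type arrays 1 to 5. All heterozygous arrays were above all wild type arrays, as for 1.47% of all genes, at a difference of 0.57 (SE 0.133, limma adjusted p = 0.342). Lag3 is dim, with a wild type mean of 5.21, below the median gene at 5.69. With rows at or below the median row left out, 8 genes of this list were tested, 1 was higher and 0 were lower. The other gene higher with all arrays was the receptor gene Cd300c, at 0.89 (adjusted p = 0.439), 0.59 without heterozygous 2 and 0.49 with the macrophage covariate. Lair1 at 1.08 and the integrin gene Itgax (CD11c) at 1.09, which macrophages also express, were highest in heterozygous 2. With the macrophage covariate they were at 0.38 and 0.28. Ly6d, also expressed in B cell precursors, at -0.12, Ptprs at -0.05 and Lifr at -0.46 were the members of this list below 0.

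Genes of nucleic acid sensing and interferon production had 4 of 8 tested above 0 and a median of -0.02. At an unadjusted p under 0.05, 0 were higher and 1 lower, against 6.79% and 4.25% of all genes. The lower gene was Traf6, a signalling ligase downstream of Toll-like receptors, at -0.40 (limma adjusted p = 0.391). The nucleic acid receptor genes were at 0.49 for Tlr7 and -0.27 for Tlr9 (SE 0.498 and 0.196), and Tlr7 was at 0.05 without heterozygous 2 and at -0.05 with the macrophage covariate. The interferon genes Ifna4 and Ifnb1 lay below the filter and were not tested. Interferon-stimulated genes, to which Bst2 also belongs, had a median of 0.08 over 13 tested, beside 0.06 for all genes. At an unadjusted p under 0.05, 0 were higher and 1 lower with all arrays. Without heterozygous 2 and wild type 1 the count was 1 higher and 1 lower. The lower gene with all arrays was the RNA sensor Ddx58 at -0.36 (adjusted p = 0.432), and Irf9 was at -0.25 and Ifit2 at -0.02.

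Secretory and cytoplasmic genes of these cells had 7 of 13 above 0 and a median of 0.11. At an unadjusted p under 0.05, 2 were higher and 0 lower, against 6.79% and 4.25% of all genes. With rows at or below the median row left out, 10 were tested, and 0 were higher and 0 lower. The count over all 13 was 5 higher and 3 lower without heterozygous 2 and wild type 1, and 3 higher and 3 lower with the macrophage covariate. Smim5, a small membrane protein gene, was 5.63, 6.26, 5.97, 5.73 and 5.65 in heterozygous arrays 1 to 5, against 5.42, 5.52, 5.18, 5.25 and 5.45 in wild type arrays 1 to 5. It was higher without overlap, as were 1.47% of all genes, and its difference was 0.48 (SE 0.135, limma adjusted p = 0.349). Creb3l2, a transcription factor of the secretory pathway, was at 0.34 (adjusted p = 0.351). Smim5 and Creb3l2 are dim, with wild type means of 5.365 and 5.361, below the median gene at 5.69. Larger but less even were Cox6a2, a cytochrome oxidase subunit, at 1.06 (SE 0.559), and the lysosomal protease gene Ctsl at 2.00 (SE 1.00), which macrophages also express. With the macrophage covariate they were at 0.43 and 0.81. Nucb2 was at -0.66 and Pld4 at -0.04.

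**Figure D4:**
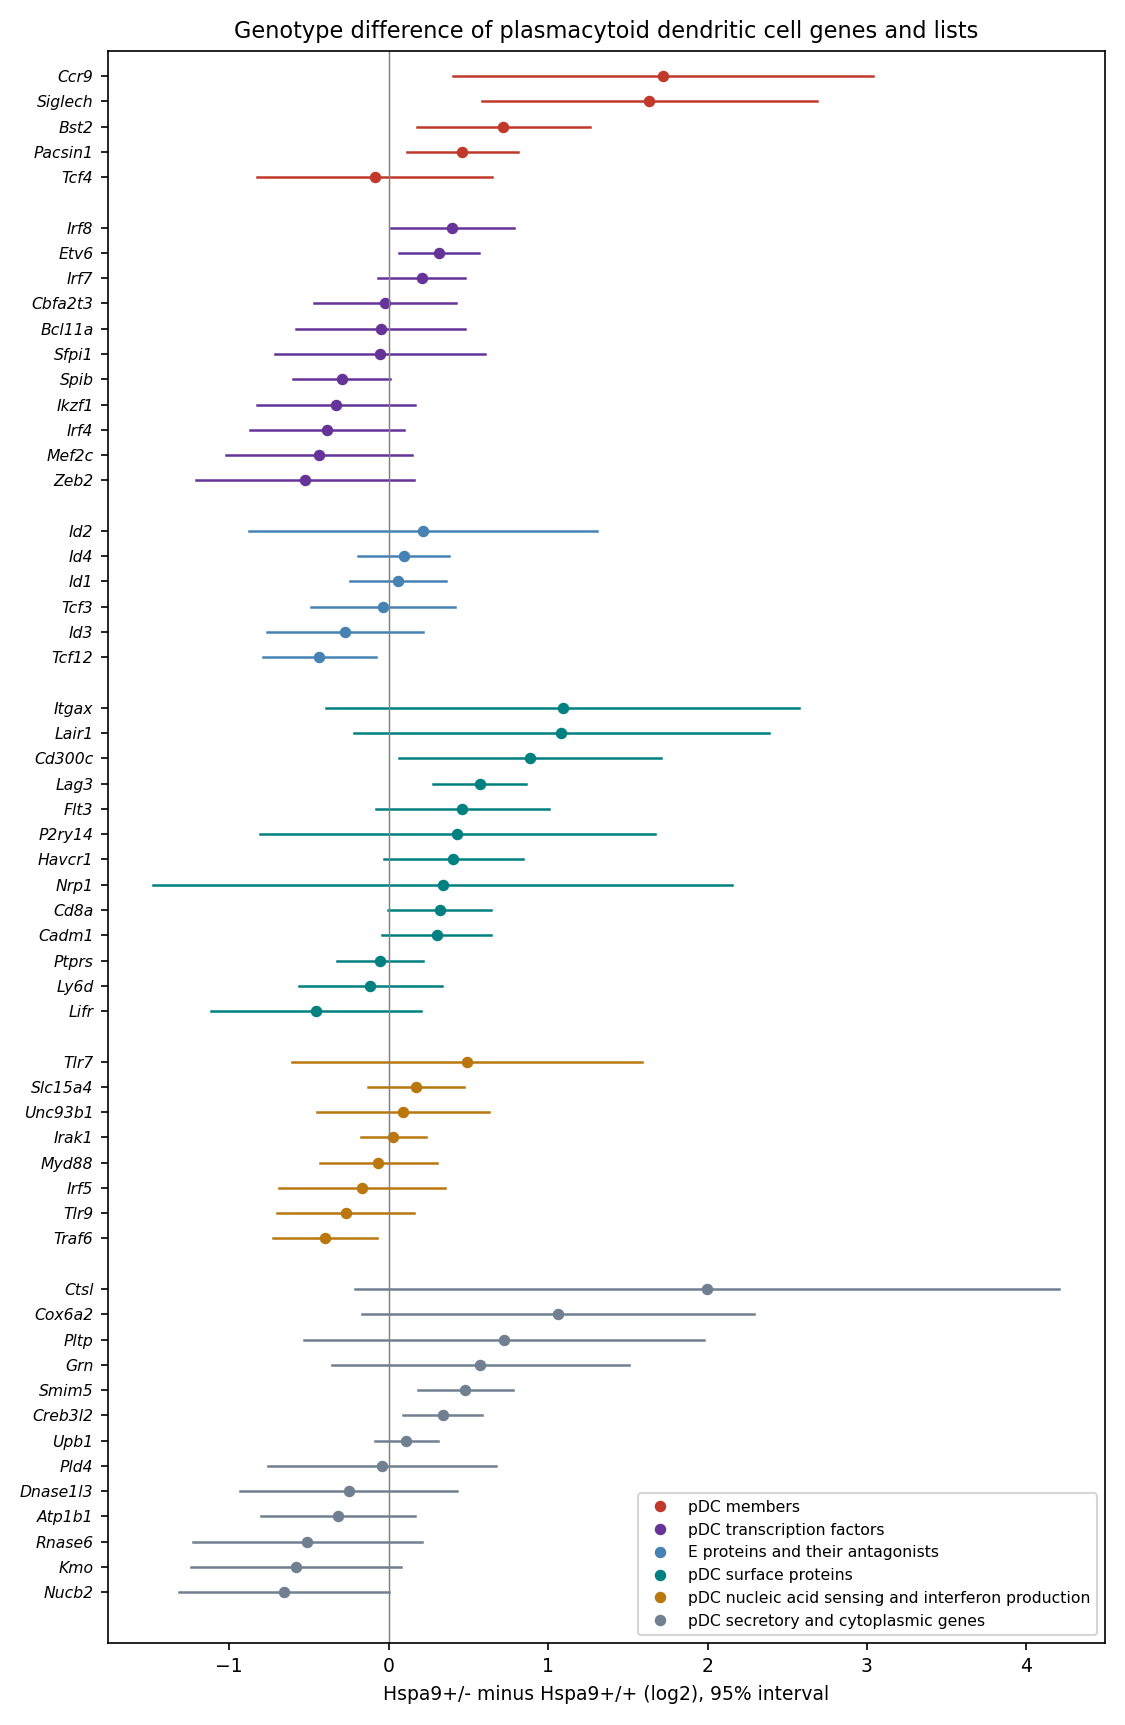
Genotype difference (Hspa9+/- minus Hspa9+/+, log2, x axis) with its 95% interval for the 5 members (top) and the tested genes of 5 lists of plasmacytoid dendritic cell and E protein genes, coloured by list. Siglech, Ccr9, Bst2, Pacsin1, Lag3, Smim5 and a few others have intervals above 0, none adjusted for the number of genes. Most transcription factor and sensing genes have intervals that include 0.

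Siglech signals through an adaptor, and the differences of the adaptor genes did not pass and shrank with the macrophage covariate. Tyrobp (DAP12), the adaptor of Siglech, was 10.35, 12.04, 10.49, 10.29 and 10.53 in heterozygous arrays 1 to 5, against 11.90, 10.76, 8.03, 7.29 and 7.76 in wild type arrays 1 to 5. As with the macrophage markers, heterozygous 2 and wild type 1 were the highest, and wild type 3, 4 and 5 lay far below. Its difference was 1.59 (SE 0.834, limma adjusted p = 0.494), and those of Fcer1g and Hcst were 1.42 and 0.37. With the macrophage covariate Tyrobp was at 0.63, Fcer1g at 0.23 and Hcst at -0.06. Of these 3 genes 0 had an unadjusted p under 0.05 with all arrays, 3 were higher at that p without heterozygous 2 and wild type 1, and 1 with the macrophage covariate. Those 2 arrays were also the highest for Tyrobp, so the count without them is no test of these genes. In the Siglec family, 2 of 7 tested were higher and 2 lower at an unadjusted p under 0.05, against 6.79% and 4.25% of all genes. Without heterozygous 2 and wild type 1 the family had 3 higher and 2 lower. The B cell members Cd22 and Siglecg were at -0.98 (SE 0.230) and -0.52 (SE 0.131), both with a limma adjusted p = 0.345. The myeloid member Siglece was at 0.34 and higher without overlap, as were 1.47% of all genes. It is a dim probe set, at 4.51 to 4.65 in wild type arrays, close to the filter of 4.52.

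Values of the relatives of Ccr9 and Pacsin1 are given for comparison, without a test of the difference from them. Of 10 chemokine receptor and ligand genes tested, 0 were higher and 3 lower at an unadjusted p under 0.05, against 6.79% and 4.25% of all genes. Without heterozygous 2 and wild type 1 the count was 1 higher and 2 lower. Cxcr4, the receptor that holds B cell precursors in bone marrow, was at -0.57 (SE 0.128, limma adjusted p = 0.297), and Ccl25, the ligand of Ccr9, at -0.55 (SE 0.149, adjusted p = 0.347). In both the genotypes did not overlap, with heterozygous arrays lower, as for 0.809% of all genes. Ccr2 was at 0.98 (SE 0.563), 0.47 without heterozygous 2 and 0.39 with the macrophage covariate. Pacsin2 was at 0.01 and Pacsin3 at 0.20, and 0 of 4 genes of the Pacsin and dynamin list had an unadjusted p under 0.05.

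Several lymphoid genes that early plasmacytoid dendritic cells share had uneven values. At an unadjusted p under 0.05, 3 of 11 were higher and 2 lower, against 6.79% and 4.25% of all genes. Dntt, the terminal transferase gene, was 10.24 to 10.48 in heterozygous arrays, against 7.31 to 10.33 in wild type arrays, a difference of 1.49 (SE 0.443, limma adjusted p = 0.349). Rag1, a recombinase gene, was at -0.79 (SE 0.231, adjusted p = 0.349). Of 9 conventional dendritic cell genes tested, 4 were higher and 2 lower at an unadjusted p under 0.05, against 6.79% and 4.25% of all genes. The count was 4 and 0 without heterozygous 2 and wild type 1, and 1 and 2 with quantile normalization. With rows at or below the median row left out, 4 were tested, 0 were higher and 1 was lower. Zbtb46, a factor of that lineage, was at 0.31 and Itgae at 0.43, both dim, with wild type means of 5.19 and 4.71. Of 11 B lineage genes 1 was higher and 2 were lower, with a median of -0.17 and Pax5 at -0.47, or -0.12 with the macrophage covariate.

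Markers of T and natural killer cells had positive differences in 6 of 6 tested genes, against 61.3% of all genes. Their median was 0.54. At an unadjusted p under 0.05, 5 were higher (6.79% of all genes), and 3 were higher without overlap (1.47% of all genes). The other 3 of the 9 markers lay below the filter, with differences of 0.42, 0.24 and -0.0014. One of the 6 had a wild type mean of 4.49, under the filter of 4.52, and passed it only through a heterozygous mean of 4.77. Another had a wild type mean of 4.54, close to the filter. The count of 6 thus depends on the filter. With rows at or below the median row left out, 2 were tested and 2 were higher. Nkg7 was at 0.68 (SE 0.149, limma adjusted p = 0.289), Cd3e at 0.38 and Thy1 at 0.71. Nkg7 and Cd3e are dim, with wild type means of 4.97 and 5.02, below the median gene at 5.69. The mean over the 9 markers was 5.27 to 5.55 in heterozygous arrays, against 4.74 to 5.24 in wild type arrays. Thy1 averaged 9.001 in heterozygous and 8.29 in wild type arrays, and Klrd1 averaged 6.93 in heterozygous and 5.28 in wild type arrays. Their part in the values of Siglech and Ccr9 was not tested.

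The genes most alike to each member, by Pearson's r over the 10 arrays among all tested genes, are a description and carry no test. For Siglech they were Klrd1 (CD94, a lectin-like receptor of natural killer cells) at 0.98, Cdh1 (E-cadherin) at 0.96 and Tvp23b at 0.96. For Ccr9 they were Tvp23b at 0.97, Klrd1 at 0.97 and Gprc5c at 0.93. Klrd1 was 7.10, 8.54, 6.99, 6.10 and 5.94 in heterozygous arrays 1 to 5, against 6.06, 6.97, 4.55, 4.24 and 4.56 in wild type arrays 1 to 5, with wild type 3, 4 and 5 the lowest as for Siglech. For Bst2 the genes were Tmem120b at 0.98, the collagenase gene Mmp13 at 0.96 and Creld1 at 0.95. For Pacsin1 they were Cdh1 at 0.94, Hsd17b4 at 0.93 and Smim5 at 0.91. For Tcf4 they were Chac2 at 0.97, the hypoxia factor gene Hif1a at 0.96 and Slk at 0.95, none of which was among those of another member.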

How the data were processed

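RNA of B220+ cells from pre-B colonies of 5 Hspa9+/- and 5 Hspa9+/+ mice was amplified with a NuGEN kit and hybridised to Mouse Gene 1.0 ST arrays, per the labels' protocols. The authors deposited log2 values per gene, computed by RMA in Affymetrix Expression Console according to the labels. The sources used here do not give its version, genome build and annotation. RMA sets arrays to a shared distribution, so a shift of most genes one way would largely be removed.

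From 35556 probe sets on 10 arrays, those with a single gene symbol in the platform annotation (21789) were kept, and 1 per symbol was taken, that of highest mean over all arrays. Symbols whose mean did not exceed the 25th percentile of all symbols, 4.52, were removed. Array medians ran from 5.38 to 5.49, and the number of arrays limits the precision. The genotype comparison used lmFit and eBayes of limma 3.58.1 (R 4.3.3, SE moderated) with Benjamini-Hochberg adjustment over the 14953 genes and a threshold of 0.05, tested on simulated data. For single genes an exact permutation test, two-sided, ran over the 252 arrangements of the arrays, and correlations by permutation with 100000 resamples.

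The members, the gene lists and the rule for named genes were chosen with earlier results of these data known. Named were the members, Hspa9 and Ptprc, any gene of the plasmacytoid dendritic cell, E protein and adaptor lists, of each other list the first 4 genes and the 2 of smallest p, and the 3 genes most alike to each member. Alternatives were other filters, every probe set as a row, other normalizations, array weights, a robust and trended variance, and a block on the replicate number. Others were the Xist level, standing for mouse sex, or macrophage markers as a covariate, and each array left out. Promoter windows came from RefSeq tables and were searched on both strands for 3 motifs.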

Additional observations from a re-analysis of the deposited data

Results flagged for a closer look

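In 18 of 150 sets of 5 arrays, over 75 genes and marker means, 1 array lay far from the other arrays of its genotype by Dixon's test, where chance alone gives about 1 in 20. None of the 5 members was among them. In 12 of the 18 sets heterozygous 2 was the highest array. It was at 9.70 for the macrophage marker mean (next array 7.35), 7.61 for the neutrophil marker mean (6.17), 9.47 for Csf1r, 12.87 for Lyz2, 12.04 for Tyrobp and 11.90 for Fcer1g. It was also highest at 8.87 for Itgax, 8.58 for Lair1, 11.38 for Ctsl, 9.38 for Id2, 6.92 for Mmp13 and 6.29 for Lag3 (next 5.72, itself above all wild type arrays), and lowest for Nkg7 at 5.24.

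Single other arrays stood apart as well. Heterozygous 1 was lowest for Creb3l2 at 5.40. Wild type 1 was lowest for Cd22 at 8.48, wild type 3 lowest for Pacsin3 at 4.69, wild type 4 highest for Ifna4 at 4.37 and wild type 5 highest for Rag1 at 9.12.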

How the results depend on the processing

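No gene passed the limma threshold in the fit of all arrays, where 1650 had an unadjusted p under 0.05. The count was 137 with array weights (74 higher, 63 lower), and with 1 array left out it ran from 0 to 22, with 22 without wild type 1 and 3 without heterozygous 2. Without both of these arrays, an alternative chosen after seeing the data like the other list counts under it and under the macrophage covariate, it was 26. Array weights brought Siglech (1.92) and Ccr9 (2.34) past the threshold. The difference of Tcf4 ran from -0.26 to 0.17 with 1 array left out, and was above 0 without heterozygous 4 (0.0062), heterozygous 5 (0.17), wild type 3 (0.014) or wild type 4 (0.069). The cause was not tested. Pacsin1 has no value where rows at or below the median row were left out. In the other settings no member changed sign or passed. Over all tested genes, arrays of the same replicate number did not pair (correlations of their deviations from -0.53 to 0.53, 0 arrays closest to their own number). With the replicate number as a block, 0 genes passed and the members' adjusted p ran from 0.501 to 0.907. Weak signals limit the dim probe sets, Pacsin1 among them.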
